A study of Mus musculus with 46 samples.

Results

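Genes of voltage-gated and potassium channels were examined in mouse thyroid cells that lack Rb and p53, with or without Max, grown in culture. Protein-coding genes whose symbols begin with Kcn, Cacna, Cacnb, Cacng, Scn with a digit, Clcn, Trpc, Trpm or Trpv with a digit, or Hcn with a digit were taken by name. That gave 114 channel genes of 14888 genes listed in either of 2 expression tables, of which 96 stood in both. One of them, Trpc4ap, encodes a protein that binds a TRP channel and is no channel itself.

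The mice carried conditional alleles of Rb and p53 (RP) or of Rb, p53 and Max (RPM), recombined in neuroendocrine cells by Ascl-CRE, a Cre recombinase switched on by tamoxifen; the animals' ages and whether a line is 1 clone are not given. RNA was sequenced from 4 RP lines and 4 RPM lines, cultured in DMEM with serum. In a second experiment, 1 RPM line was transduced either with empty vector (3 libraries) or with a vector that expresses Max (3 libraries, the Max addback). Its library names carry the identifier of RPM replicate 2, and whether the 6 libraries were separate cultures is not stated. Adjusted p-values in that experiment measure the spread between these libraries, which may be technical. Levels are CPM, read counts scaled to library size, and changes are log2 differences of CPM + 1, tested with limma over all listed genes. A gene is said to be higher or lower where its Benjamini-Hochberg adjusted p was under 0.05, two-sided.

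Ion channels set the membrane voltage of excitable cells. Potassium channels hold it at rest and end each action potential, sodium channels start the action potential, and calcium channels turn it into calcium entry, which triggers hormone release. Neuroendocrine cells of the thyroid, the calcitonin-secreting C cells, are electrically excitable and secrete in answer to calcium. MAX is the protein with which MYC, MXD, MNT and MGA pair to bind DNA at the E-box CACGTG.

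Reads totalled 6738614 to 8498396 per library over the listed genes, and 3 reads, the limit used for a gene without reads, stood for 0.353 to 0.458 CPM, covering counting error only. The C cell and neuroendocrine markers Calca, Chga and Nkx2-1 were read in every library, Calca at 832 CPM or more. With addback, 17 of 20 listed neuroendocrine markers were higher and 1 lower, and their summed level was 6648 to 6961 CPM with empty vector and 13290 to 14940 CPM with addback. Of 12 epithelial markers 10 were higher and 1 lower with addback, from a summed 93.1 to 105 CPM to 861 to 1032 CPM. Of the listed neuron, glial and fibroblast markers, 4 of 8, 3 of 4 and 2 of 4 were higher and 4, 1 and 2 lower. Of 5 follicular and 3 endothelial markers, 1 each was higher and 1 each lower. Over all genes 27.7% were higher and 25.5% lower. Markers at or under 3 reads in every library of a group included Stmn2 (neuroendocrine), Cldn7 (epithelial) and Duoxa2 (follicular) with empty vector, and Cldn4 (epithelial) and Pax8 (follicular) with addback. The other marker sums, empty vector first, were 92.8 to 97.8 and 72.6 to 105 CPM for follicular cells, 33.7 to 44.3 and 17.0 to 21.0 CPM for fibroblasts, 183 to 204 and 239 to 273 CPM for glia, 1433 to 1466 and 1476 to 1756 CPM for neurons, 5.65 to 6.54 and 7.33 to 10.1 CPM for endothelium and 1.83 to 3.27 and 2.49 to 3.73 CPM for immune cells. In the lines no marker was called, where 0.334% of all genes were. Neuroendocrine markers there summed to 8009 to 11860 CPM in RP and 9036 to 29820 CPM in RPM lines, epithelial markers to 3002 to 4747 and 302 to 5971 CPM. The part of these markers in the channel results was not tested. In bulk RNA, fewer cells of a type and less RNA per cell cannot be told apart. The 4 listed Y-linked genes summed to 410.1 to 423 CPM in the empty vector libraries and 0 to 0.257 CPM in the addback libraries. Among them, Ddx3y stood at 157 to 177 CPM with empty vector and at 0 in every addback library. The untransduced RPM replicate 2, whose identifier both carry, held 125 CPM of Ddx3y. The effect of Max and any other difference between the 2 cultures thus cannot be told apart. Addback replicate 3 stood apart from its 2 partners, with a chi-square per degree of freedom of 15.5 and 13.2 against 1.84 between them. RPM replicate 1 shares its animal identifier with tumours whose labels name only Rb and p53, and RP replicate 4 held reads of both Xist and a Y-linked gene. The Max transcript was read at 83.1 to 96.0 CPM with empty vector and at 220.3 to 251 CPM with addback, and at 68.9 to 103 CPM in RPM lines against 44.7 to 65.2 CPM in RP lines. Whole-gene counts do not show a deleted exon.

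Because MAX dimers bind CACGTG, the promoters were searched for it. The motif is its own reverse complement, so 1 search covers both strands. RefSeq promoter windows (GRCm38.p6, 250 bases before and 50 after a start) were found for 86 of the 114 channel genes, 119 windows in all. CACGTG stood in 11 of these, or 9.24%, and in 7.15% of all 32851 windows. By the addback result it stood in 3 of 49 windows of channel genes that were higher (6.12%), 1 of 18 of those lower (5.56%) and 5 of 36 of those not called (13.9%). The genes with it were Clcn4, Clcn6, Clcn7, Kcnab1, Kcnh4, Kcnj2, Kcnk5, Trpm1, Trpm7 and Trpv3. The 250 bases before the start, 5′ to 3′, are shown for the 3 CLC exchanger genes with the motif and for Kcnj2, the inward rectifier with it, with CACGTG in capitals, and for Kcnj3 and Kcnn3, the channel genes with the largest rise and the largest fall of log2(CPM + 1) on addback, which do not hold it in these bases.
Clcn6 (chr4:148038814-148039063, minus strand): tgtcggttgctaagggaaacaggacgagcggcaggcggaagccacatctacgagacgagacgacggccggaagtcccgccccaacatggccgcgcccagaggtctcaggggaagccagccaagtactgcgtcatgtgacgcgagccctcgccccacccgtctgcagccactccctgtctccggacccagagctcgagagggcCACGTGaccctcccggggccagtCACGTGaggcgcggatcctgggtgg
Clcn4 (chr7:7299558-7299807, minus strand): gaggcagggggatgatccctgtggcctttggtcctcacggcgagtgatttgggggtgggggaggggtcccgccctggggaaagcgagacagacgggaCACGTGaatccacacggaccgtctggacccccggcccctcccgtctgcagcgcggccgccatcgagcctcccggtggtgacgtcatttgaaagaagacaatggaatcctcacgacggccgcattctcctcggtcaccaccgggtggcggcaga
Clcn7 (chr17:25133141-25133390, plus strand): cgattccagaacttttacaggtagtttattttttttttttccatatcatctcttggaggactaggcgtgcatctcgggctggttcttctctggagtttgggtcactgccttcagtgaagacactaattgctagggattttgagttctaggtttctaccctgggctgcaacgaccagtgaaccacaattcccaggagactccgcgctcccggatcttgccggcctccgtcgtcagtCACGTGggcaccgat
Kcnj2 (chr11:111065914-111066163, plus strand): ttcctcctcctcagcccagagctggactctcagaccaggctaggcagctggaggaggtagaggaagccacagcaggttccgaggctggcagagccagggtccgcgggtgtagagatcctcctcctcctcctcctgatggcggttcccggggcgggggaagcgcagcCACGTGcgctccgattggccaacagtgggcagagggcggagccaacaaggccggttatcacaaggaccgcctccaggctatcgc
Kcnj3 (chr2:55435720-55435969, plus strand): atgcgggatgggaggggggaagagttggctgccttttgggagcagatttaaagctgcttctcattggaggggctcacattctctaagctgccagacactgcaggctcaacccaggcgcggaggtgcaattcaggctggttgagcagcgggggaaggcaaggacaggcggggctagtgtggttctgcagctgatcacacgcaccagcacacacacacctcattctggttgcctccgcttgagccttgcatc
Kcnn3 (chr3:89519914-89520163, plus strand): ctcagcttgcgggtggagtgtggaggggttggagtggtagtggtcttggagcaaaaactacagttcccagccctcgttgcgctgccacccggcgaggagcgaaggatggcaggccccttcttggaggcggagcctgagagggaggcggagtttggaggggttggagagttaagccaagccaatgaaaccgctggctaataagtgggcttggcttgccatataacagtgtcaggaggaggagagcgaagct
Clcn6 holds 2 motifs within 50 bases of the start. Clcn7 holds 1 at 15 bases before its start and another in the 50 bases after it, outside the letters shown. The Trpm7 window likewise holds 2. A match describes these letters only and is no evidence of binding.

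Levels of different genes were compared per gene length, as RPKM. Of the 96 channel genes in both tables, 68 averaged at least 1 RPKM over the 14 libraries, 40 at least 5 and 20 at least 10. Kcnk3, which encodes the acid-sensitive leak channel TASK-1, had the highest mean, 65.8 RPKM, and stood at 55.0 ± 19.5 RPKM in RP lines, 106 ± 57.4 in RPM lines (SD, n = 4 each), 19.5 ± 1.05 with empty vector and 72.8 ± 2.97 with addback (SD, n = 3 each). Hcn2, a pacemaker channel opened by hyperpolarisation, varied least of the 6 with the highest means, at 28.3 to 59.5 RPKM over the 14 libraries. Cacna2d2, an auxiliary subunit that brings calcium channels to the surface, ranged from 1.23 to 78.8 RPKM and was most abundant with empty vector. The calcium channel beta subunit Cacnb3, the voltage-gated potassium channel Kcnh3 and the leak channel Kcnk1 followed, with means of 32.8, 30.6 and 28.5 RPKM. Kcnk1 averaged 44.6 ± 5.78 RPKM in RP lines and 0.437 ± 0.0947 RPKM with empty vector. Others of high mean were Trpc4ap, Clcn6, Kcnk16, Clcn3, Trpm7, Kcnh2, Clcn4 and Cacng4, with 23.5 for the first and 14.7 RPKM for Clcn4. The ranges over the 14 libraries of neighbours in the order of these means overlapped throughout, so no neighbour is separated from the next beyond its spread. The 2 tables were normalised separately, so levels set across them are approximate.

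**Figure D1:**
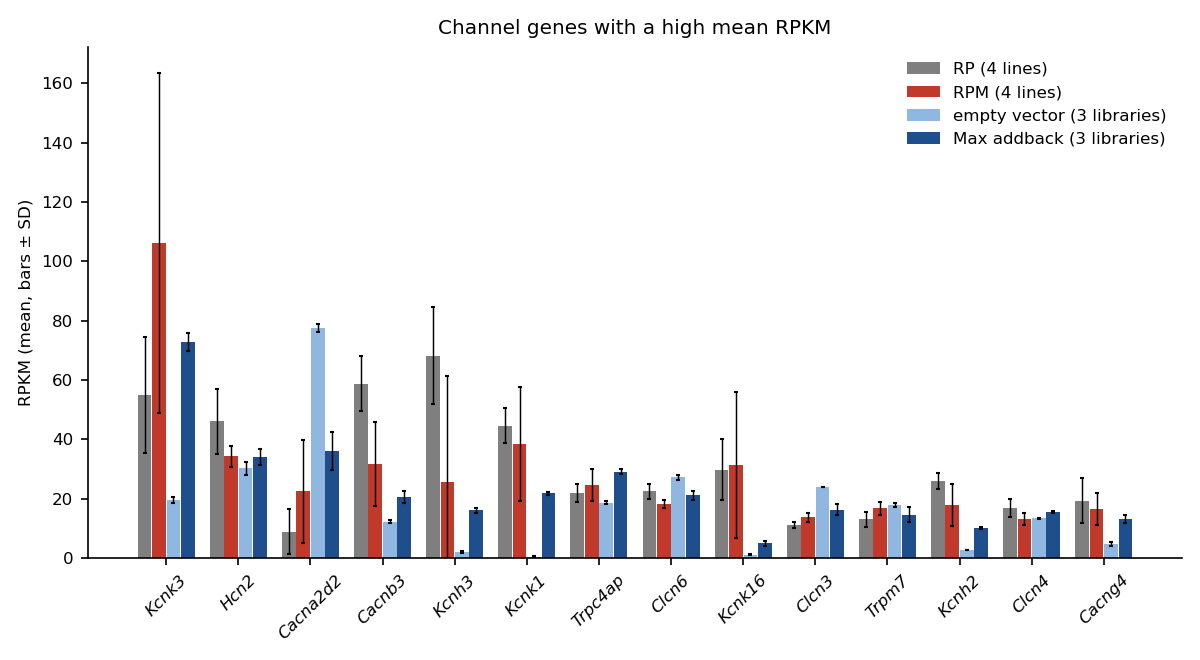
Mean RPKM (bars) with SD (error bars) of 14 channel genes with a high mean over 14 libraries, in 4 RP lines, 4 RPM lines, 3 empty vector and 3 Max addback libraries. Kcnk1, Kcnk16, Kcnh3 and Kcnh2 have their lowest bars with empty vector, and Cacna2d2 its highest.

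Max addback was compared with the empty vector to ask what the return of Max does in an RPM line. Of 99 channel genes listed there, 56 were higher with addback, 15 were lower and 28 were not called. Over all 14056 genes 27.7% were higher and 25.5% lower, so 53.2% were called in either direction against 71.7% of the channel genes. The median log2 change of the channel genes was 0.59, against -0.002 over all genes, and was the same with the 3 genes that had no read with empty vector set to their lower bound. With a change of at least 2-fold besides, 41 channel genes were higher and 7 lower, where 10.5% and 5.04%, or 15.6%, of all genes were. The libraries of the 2 groups did not overlap for 57 channel genes that lay above and 19 that lay below (31.7% and 30.2%, or 61.9%, of all genes). The authors' deposited table calls 50 channel genes higher and 12 lower, beside 18.9% and 13.1%, or 32%, of all genes. Without addback replicate 3, which stood apart, 58 channel genes were higher and 18 lower, where 32.5% and 31.7%, or 64.3%, of all genes were. The counts were the same, 56 and 15, with median-of-ratios scaling, and leaving out each library in turn gave 51 to 58 higher and 13 to 18 lower channel genes. The plot by channel class shows each gene's change. Classes were not tested.

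**Figure D2:**
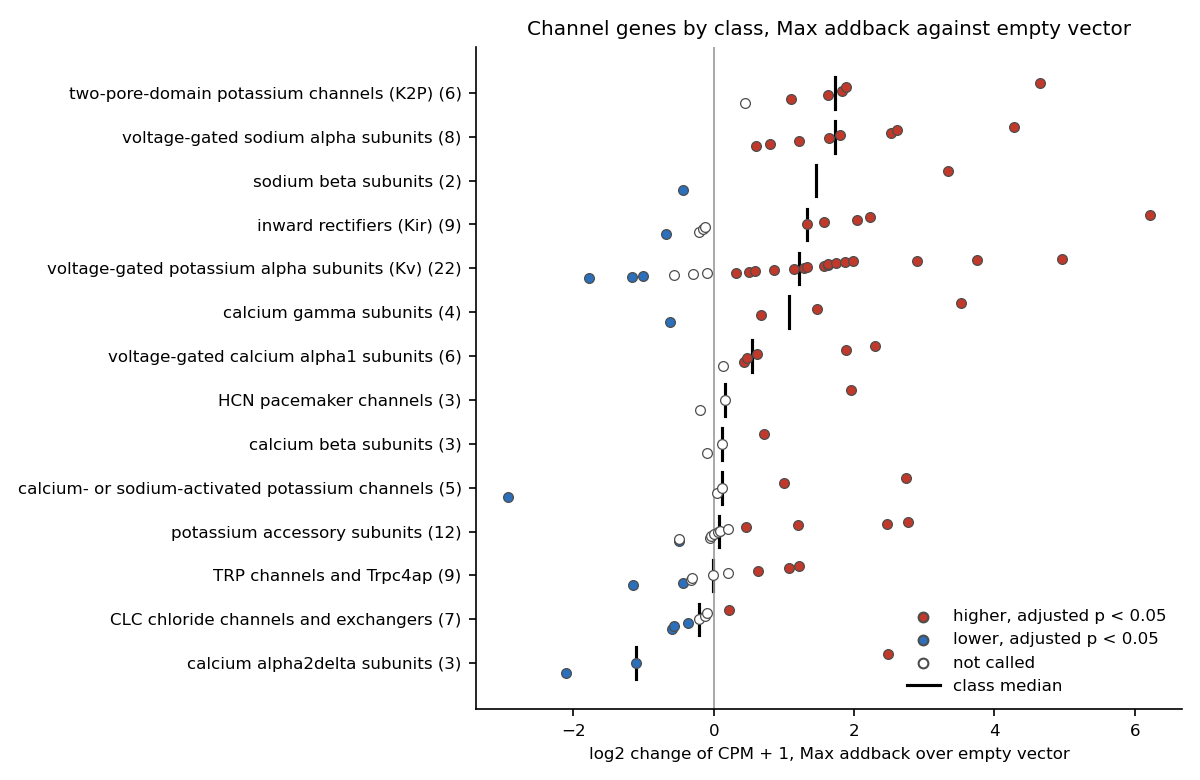
Log2 change of CPM + 1 (x axis, addback over empty vector) for each of 99 channel genes, by class (y axis, number of genes in parentheses); red points were higher and blue points lower at adjusted p under 0.05 by limma, white points were not called, and bars are class medians. All 8 sodium channel alpha subunits are red, and 3 of 7 CLC genes are blue.

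Voltage-gated potassium channels form the largest class, with 16 of 22 alpha subunit genes higher and 3 lower. Over all genes these shares were 27.7% and 25.5%. Kcnq1 (ENSMUSG00000009545.14, chr7:143106362-143427042, build mm10), which encodes a slow delayed rectifier of heart and epithelia, was read at 0.286, 0.995 and 0.611 CPM with empty vector and at 46.4, 44.8 and 56.0 CPM with addback. The groups were far apart (log2 change 4.96, SE 0.18, adjusted p = 2.11e-08, limma). One exon of Kcnq1 overlaps the antisense RNA Kcnq1ot1, whose reads cannot be told from those of Kcnq1 without strand; Kcnq1ot1 itself stood at 74.7 to 91.1 CPM and 65.4 to 79.7 CPM and was not called (adjusted p = 0.11). Kcnc1 (chr7:46396497-46438704), a fast delayed rectifier that lets neurons fire quickly, stood at 2.43, 2.13 and 0.458 CPM and at 36.2, 34.6 and 28.1 CPM (log2 change 3.76, SE 0.29, adjusted p = 3.15e-06). Kcnh3 (chr15:99224861-99242817), of the EAG family, stood at 9.43, 12.9 and 12.2 CPM and at 95.9, 87.2 and 93.2 CPM (log2 change 2.90, SE 0.12, adjusted p = 4.62e-08). For all 3 every addback library lay above every empty vector library, as for 31.7% of all genes. Kcnh2, the ERG channel that repolarises cardiac and endocrine cells, rose from 12.6 ± 0.690 to 49.0 ± 1.76 CPM (SD, n = 3 each; log2 change 1.88). Kcnb2, a Kv2 subunit, had no read with empty vector and 2.29, 2.74 and 1.41 CPM with addback, at least 4.91-fold higher against a limit of 3 reads per library. Kcnh1 was the main exception: the EAG1 channel stood at 176, 169.8 and 172 CPM with empty vector and 53.6, 54.8 and 41.4 CPM with addback (log2 change -1.78, SE 0.11, adjusted p = 5.60e-07). Kcnf1 and Kcng3, subunits that open no channel alone and modify Kv2 channels, were lower too, by log2 changes of -1.16 and -1.01, the latter at no more than 2.56 CPM.

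Among the inward rectifiers, which pass potassium near the resting voltage, 5 of 9 were higher and 1, Kcnj4, lower. Over all genes 27.7% were higher and 25.5% lower. Kcnj3 (ENSMUSG00000026824.11, chr2:55435970-55598145), the GIRK1 subunit opened by G-protein-coupled receptors, had the largest log2 change of CPM + 1 among the channel genes, a scale that understates changes from 0 reads. It stood at 1.00, 0.142 and 0 CPM with empty vector and at 104, 99.8 and 87.8 CPM with addback (log2 change 6.22, SE 0.23, adjusted p = 2.47e-08). Its partner GIRK2, Kcnj6, rose from 2.097 ± 0.309 to 12.5 ± 5.17 CPM (SD, n = 3 each), with 6.55 CPM in addback replicate 3 (log2 change 2.04, adjusted p = 1.79e-04). Kcnj11, the Kir6.2 pore of the ATP-sensitive channel that couples metabolism to secretion in beta cells, stood at 5.86, 5.97 and 6.11 CPM and at 35.2, 31.3 and 29.0 CPM (log2 change 2.23, SE 0.12, adjusted p = 2.18e-07). Abcc8, the sulphonylurea receptor with which Kir6.2 assembles, stood at 21.7, 16.8 and 20.6 CPM and at 118, 106 and 91.8 CPM (log2 change 2.36, adjusted p = 2.11e-07). The addback libraries lay above the empty vector libraries without overlap for both subunits, as they did for 31.7% of all genes.

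The leak channels of the K2P class rose in 5 of 6 cases, beside 27.7% of all genes. Kcnk4 was the exception (log2 change 0.45, limma adjusted p = 0.0678). Kcnk1 (chr8:125995170-126030685), TWIK-1, stood at 0.858, 0.852 and 1.22 CPM with empty vector and 48.6, 47.2 and 49.9 CPM with addback (log2 change 4.65, SE 0.13, adjusted p = 4.59e-09). Kcnk3, with the highest mean RPKM over the 14 libraries though not with empty vector alone, stood at 76.3, 74.3 and 82.3 CPM and 293, 276 and 299 CPM (log2 change 1.88, SE 0.07, adjusted p = 3.65e-08). The groups lay far apart, and one of its exons overlaps an exon of the antisense gene Gm9899. Kcnk16, the TALK-1 channel of pancreatic islets, rose from 2.62 ± 0.737 to 11.8 ± 2.00 CPM (SD, n = 3 each; adjusted p = 2.32e-05).

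Of the potassium channels opened by calcium or sodium, Kcnn3 and Kcnt1 moved in opposite directions. Kcnn3 (chr3:89520164-89675132), the SK3 channel of the afterhyperpolarisation, stood at 12.7, 13.2 and 14.8 CPM with empty vector and 1.27, 0.872 and 0.643 CPM with addback and had the largest fall of log2(CPM + 1) among the channel genes (log2 change -2.93, SE 0.16, adjusted p = 3.42e-07). Kcnt1, a sodium-activated channel, stood at 4.14, 1.85 and 2.44 CPM and 23.5, 28.4 and 20.0 CPM (log2 change 2.74, SE 0.22, adjusted p = 4.42e-06). Kcnn2, the SK2 channel, rose from 0.930 ± 0.263 to 2.83 ± 0.218 CPM, while Kcnn1 was not called (log2 change 0.05). The family's members thus did not move together.

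Of 12 accessory subunit genes of potassium channels, 4 were higher, 1 was lower and 7 were not called. Over all genes 27.7% were higher and 25.5% lower. Kcnmb2, a subunit that inactivates the BK channel, had no read with empty vector and 5.47, 5.85 and 6.04 CPM with addback, at least 13.2-fold higher. Kcnip2, a calcium-binding partner of Kv4 channels, stood at 0.286, 0.568 and 0.458 CPM and 6.86, 7.22 and 6.81 CPM (log2 change 2.47, SE 0.15, adjusted p = 7.02e-07). Kcnip3 rose from 6.98 ± 2.02 to 16.9 ± 0.855 CPM and Kcnab3 by 0.45 on the log2 scale, and Kcne2, near 1 CPM or under, was lower.

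All 8 voltage-gated sodium channel alpha subunit genes were higher with addback, beside 27.7% of all genes, with log2 changes of 0.60 to 4.28. Scn9a (ENSMUSG00000075316.11, chr2:66480080-66634962), the Nav1.7 channel of sensory and neuroendocrine cells, had no read in the 3 empty vector libraries and 22.1, 22.5 and 12.5 CPM with addback, at least 43.5-fold higher (limma adjusted p = 1.83e-07). Scn11a, Nav1.9, stood at 0, 0.142 and 0 CPM and 6.10, 6.23 and 4.11 CPM, and Scn4a, the skeletal muscle channel, at 0, 0.426 and 0.153 CPM and 6.86, 5.85 and 4.75 CPM. The 3 listed muscle markers summed to 5.19 to 8.38 CPM with empty vector and 2.57 to 3.94 CPM with addback. Of these 3, 2 were lower, beside 25.5% of all genes. Scn3a and Scn8a, neuronal channels with the highest RPKM of the class, stood at 53.2, 54.1 and 52.7 CPM and 91.8, 99.9 and 58.2 CPM, and at 43.9, 43.6 and 40.9 CPM and 94.1, 81.2 and 56.7 CPM, in that order. In both, addback replicate 3 lay nearest to the empty vector libraries without overlap. The beta subunits divided: Scn2b stood at 0.572, 0.284 and 0 CPM and 13.7, 11.1 and 10.8 CPM (log2 change 3.34, SE 0.20, adjusted p = 4.75e-07), whereas Scn3b fell from 124 ± 7.28 to 91.5 ± 6.69 CPM (adjusted p = 0.00161).

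Of the calcium channel pores 5 of 6 were higher, beside 27.7% of all genes. Cacna1d, the Cav1.3 channel that opens at low voltage and drives endocrine pacemaking, rose from 26.2 ± 2.88 CPM to 99.5 ± 14.3 CPM (SD, n = 3 each), without overlap (log2 change 1.88, SE 0.12, adjusted p = 9.94e-07); one of its exons overlaps Chdh on the other strand. Cacna1h, a T-type channel, rose from 0.679 ± 0.156 to 7.28 ± 1.34 CPM. Cacna1c, the other L-type pore, stood at 133, 145 and 142 CPM and 264, 237 and 159 CPM, and the P/Q-type pore Cacna1a was not called (138, 142 and 143 CPM and 182, 167 and 122 CPM). The auxiliary alpha2delta subunits did not share a direction. Cacna2d2 stood at 604, 626 and 616 CPM and 313, 320.3 and 228 CPM (log2 change -1.11, SE 0.12, adjusted p = 4.21e-05), and Cacna2d3 at 33.7, 36.5 and 39.5 CPM and 7.25, 8.09 and 7.71 CPM (log2 change -2.11, SE 0.11, adjusted p = 2.26e-07). Both fell, while the scarce Cacna2d4 stood at 1.00, 1.14 and 1.37 CPM and 11.8, 11.3 and 10.2 CPM (log2 change 2.48, SE 0.15, adjusted p = 5.08e-07). Among the gamma genes, several of which encode helpers of glutamate receptors, Cacng2, stargazin, stood at 0.715, 1.28 and 0.763 CPM and 21.4, 18.9 and 22.7 CPM (log2 change 3.53, SE 0.16, adjusted p = 8.48e-08), Cacng4 and Cacng8 were higher and Cacng7 lower. An exon of Cacng2 overlaps an antisense gene, A730060N03Rik. The beta subunit Cacnb3 rose from 49.1 ± 1.42 to 81.9 ± 8.40 CPM (adjusted p = 1.07e-04), and Cacnb1 and Cacnb4 were not called.

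**Figure D3:**
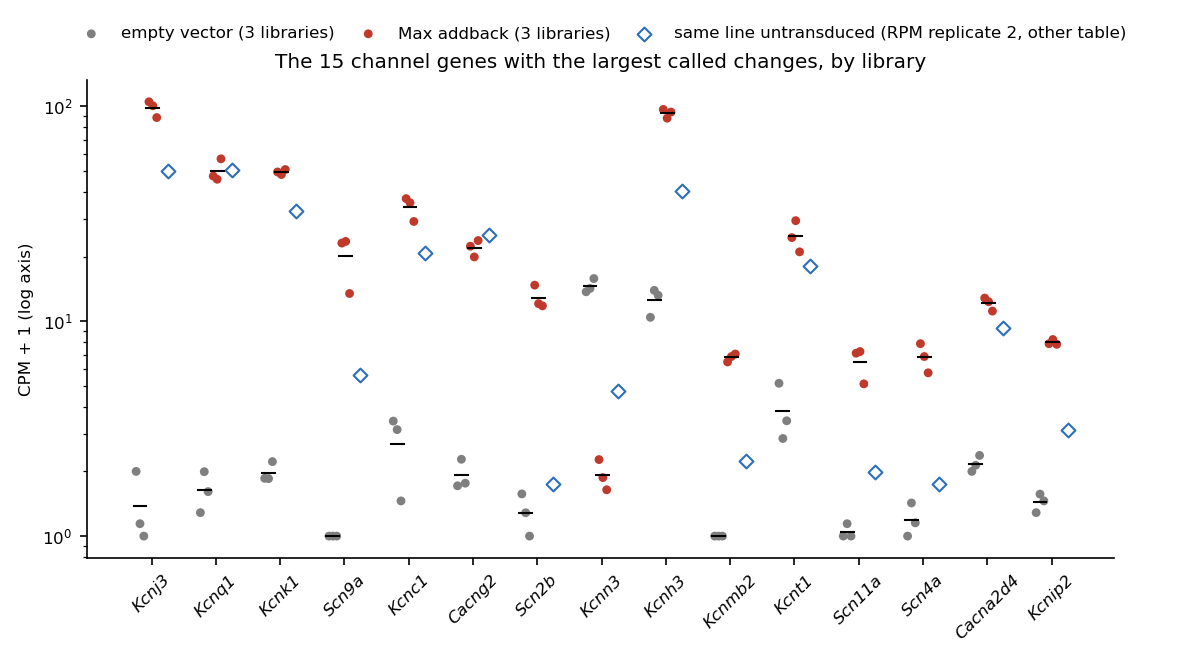
CPM + 1 (log axis) in each empty vector (grey) and Max addback (red) library for the 15 channel genes with the largest called changes, with group means as bars and the untransduced line (RPM replicate 2, from the other table) as diamonds. Addback and empty vector libraries do not overlap for any of the 15, which choosing the largest called changes nearly fixed beforehand. The diamonds of Kcnq1 and Cacng2 lie at the addback level.

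Of the pacemaker, TRP and CLC genes, 5 were higher and 5 lower of 19, shares near the 27.7% and 25.5% of all genes. Hcn4 stood at 14.1, 15.8 and 16.2 CPM with empty vector and 73.6, 66.3 and 49.1 CPM with addback (log2 change 1.95, SE 0.14, adjusted p = 2.45e-06), while Hcn2 was not called (log2 change 0.17). Of 9 TRP genes, counting Trpc4ap, 3 were higher, among them Trpc4 and Trpc4ap, and 2 lower, Trpc1 and Trpv2. Trpc1, a calcium-permeable channel, stood at 41.6, 42.3 and 37.6 CPM and 18.1, 18.7 and 16.4 CPM (log2 change -1.15, SE 0.10, adjusted p = 8.07e-06). Trpm7, a channel fused to a kinase and one of the genes with CACGTG near its start, was not called (208, 195 and 203 CPM and 184, 179 and 131 CPM, adjusted p = 0.0564). Of the CLC genes, Clcn3, an endosomal chloride-proton exchanger, stood at 411, 405 and 407 CPM and 284, 303 and 243 CPM (log2 change -0.56, SE 0.09, adjusted p = 5.43e-04). Clcn6, of late endosomes, whose promoter holds 2 CACGTG motifs, stood at 158, 158 and 167 CPM and 135, 124 and 116 CPM (log2 change -0.37, SE 0.08, adjusted p = 0.00309). Clcn7, the lysosomal exchanger, lay lower in every addback library without being called (84.3, 77.7 and 74.2 CPM and 71.3, 67.1 and 65.0 CPM, adjusted p = 0.0513), and Clcn4 rose from 114 ± 2.18 to 132 ± 2.82 CPM (adjusted p = 0.0228). The 3 exchanger genes with the motif thus did not share a direction. The Clcn4 call was lost without each library but addback replicate 3, with a limma adjusted p of 0.0562 to 0.089, and with DESeq2 (adjusted p = 0.0559).

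The untransduced line of the addback experiment, RPM replicate 2, was set beside its transduced libraries as a description, since its values come from the other table. Nearness was judged by log2(CPM + 1) against each group's mean CPM, and can turn out otherwise in CPM. Of the 56 channel genes higher with addback, 37 (66.1%) lay nearer to the addback mean than the empty vector mean in the untransduced line. The same held for 66.0% of all genes that were higher. For channel genes that were lower this held for 11 of the 13 also listed in the other table (84.6%), against 60.7% of all lower genes. Kcnq1 stood at 49.9 CPM in the untransduced line, beside a mean of 49.1 CPM with addback and 0.63 CPM with empty vector. Kcnj3 stood at 48.9 CPM, Kcnk1 at 31.5, Cacng2 at 24.2 and Kcnh3 at 39.5 CPM. In CPM, Kcnh3 lay nearer to the empty vector mean of 11.5 than to the addback mean of 92.1. These values come from 1 library of a line that is labelled Max mutant and carries no vector. Why they differ from the empty vector libraries was not tested. The Y-linked Ddx3y, at 125 CPM untransduced, lay near the empty vector (157 to 177 CPM) and not the addback libraries (0 CPM). Cacna2d3 and Trpc1, lower with addback, stood at 7.11 and 16.7 CPM untransduced, also near the addback level. Scn2b, Scn4a, Scn11a, Kcnmb2 and Kcnip2 went the other way and lay nearer to the empty vector, at 0.748 to 2.12 CPM. The plot of the leading genes by library shows both patterns.

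The RPM lines were compared with the RP lines to ask what differs in tumour lines without Max. None of 111 channel genes was called by limma, where 0.334% of all 14360 genes were (48 genes, 0.209% higher and 0.125% lower). edgeR's quasi-likelihood test called none (0.00696% of all genes higher and 0.0139% lower, or 0.0209%), and DESeq2 called 1 higher, Kcnd3, and 3 lower (2.45% and 2.12%, or 4.58%, of all genes). At an unadjusted p under 0.05 there were 6 higher and 13 lower, or 17.1%, beside 7.56% higher and 8.34% lower, or 15.9%, of all genes. The median log2 change of the channel genes was -0.17, with 70 of 111 below 0, and that of all genes -0.005. The libraries did not overlap for 2 channel genes that lay above and 5 below, or 6.31%, beside 4.97% above and 4.39% below, or 9.37%, of all genes. The authors' deposited table calls 6 channel genes higher and 12 lower, where it calls 1.72% and 2.47% of all genes, or 4.19%.

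Kcnh3 stood at 377, 458, 470.5 and 266 CPM in RP lines 1 to 4 and at 455, 39.5, 53.3 and 38.0 CPM in RPM lines 1 to 4 (log2 change -2.28, SE 0.73, adjusted p = 0.222, limma). RPM replicate 1 lay within the RP range and the other RPM lines far below it. Cacnb3 stood at 196, 232, 286 and 228 CPM and at 206, 71.1, 115 and 114 CPM, again with RPM replicate 1 among the RP lines (adjusted p = 0.195). Cacnb4, the beta subunit of neuronal calcium channels, lay lower in every RPM line, at 4.33, 9.38, 7.44 and 4.36 CPM and 1.66, 3.37, 2.25 and 2.48 CPM (adjusted p = 0.185). Kcnc1 did so too, at 114, 151, 102 and 104 CPM and 63.3, 19.8, 67.3 and 77.9 CPM (adjusted p = 0.234), and the plasma membrane chloride channel Clcn2 lay higher in every RPM line, at 21.4, 23.8, 30.1 and 28.6 CPM and 31.8, 44.1, 44.4 and 36.9 CPM (adjusted p = 0.212). Cacnb1 averaged 38.4 ± 15.6 and 19.8 ± 4.75 CPM (SD, n = 4 each; adjusted p = 0.253). Scn2b, at 0, 0.240, 0.122 and 5.30 CPM in RP lines and at 12.8, 0.748, 37.2 and 27.2 CPM in RPM lines, spread widely within both groups (adjusted p = 0.243).

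Without RPM replicate 1, limma called 6 channel genes lower and none higher, where 1.28% of all genes were lower and 0.536% higher, or 1.82% in all. Among them were Kcnh3, Cacna1a and Cacnb3, with log2 changes of -3.12, -1.56 and -1.25 (limma adjusted p = 0.00351, 0.0187 and 0.0354). Kcnh8, of the EAG family like Kcnh3, averaged 13.8 ± 7.35 CPM in RP lines (SD, n = 4) and 2.30 ± 0.977 CPM in RPM replicates 2 to 4 (SD, n = 3), and was called too (limma adjusted p = 0.0479). Cacna1a, the P/Q-type calcium pore, stood at 288, 162, 254 and 252 CPM in RP lines and 275, 74.9, 88.9 and 73.0 CPM in RPM lines, and the N-type pore Cacna1b came close (adjusted p = 0.0584). Of the 25 channel genes whose RPM replicates 2 to 4 did not overlap the RP lines, 8 lay above and 17 below, or 22.5%, beside 9.87% and 10.9%, or 20.8%, of all genes. RPM replicate 1 lay inside the RP range for 6 of the 8 and 9 of the 17, and on the side of the other RPM lines for 2 and 5. For the rest of the 17, Kcnh5 and Kcnh8 among them, it lay above the RP range. These shares were not counted over all genes. With all 4 RPM lines, 2 channel genes lay above and 5 below without overlap. Over all genes, 2990 did not overlap without RPM replicate 1 and 1345 with it, so channel genes were not alone in this. At an unadjusted p under 0.05 there were 11 higher and 21 lower without RPM replicate 1. That was 28.8%, beside 9.81% and 11.6%, or 21.4%, of all genes. No other single library changed the count of called channel genes.

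**Figure D4:**
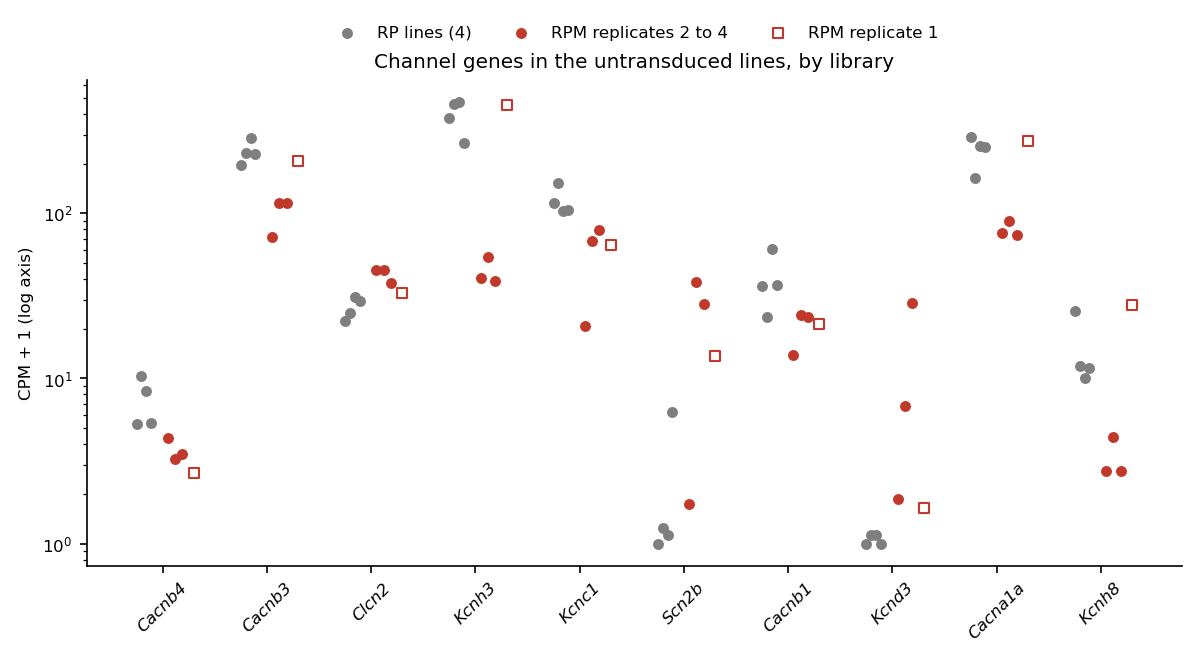
CPM + 1 (log axis) of 10 channel genes in 4 RP lines (grey points), RPM replicates 2 to 4 (red points) and RPM replicate 1 (open squares): 8 of small p, then Cacna1a and Kcnh8, called only without RPM replicate 1. For Cacnb3, Kcnh3 and Cacna1a the square lies among the RP lines, and for Cacnb4 it lies with the RPM lines.

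Of the 96 channel genes in both tables, 4 had groups without overlap in both comparisons. Kcnc1 and Kcnh2 lay lower in the RPM lines and higher with addback; 2.08% of the channel genes and 4.38% of all shared genes lay in opposite directions. Kcnh2 stood at 137, 113, 138 and 115 CPM in RP lines and 104, 35.7, 98.4 and 109.6 CPM in the RPM group, where replicate 2 was lowest, and at 12.1, 12.4 and 13.4 CPM with empty vector and 50.8, 47.3 and 49.0 CPM with addback. Kcnd3 lay higher and Clcn6 lower in both, and 2.08% of the channel genes and 1.63% of all shared genes lay in the same direction. Kcnd3, a Kv4 channel of the transient outward current, stood at 0, 0.120, 0.122 and 0 CPM in RP lines and at 0.638, 0.873, 5.80 and 27.5 CPM in RPM lines and at 0.715, 0.426 and 0.611 CPM and 1.91, 1.62 and 0.771 CPM in the addback experiment, where it rose (adjusted p = 0.0405) but lost its call with DESeq2 (adjusted p = 0.102) and without each library but addback replicate 3 (limma adjusted p = 0.0673 to 0.135). Clcn6 stood at 151, 125, 140.0 and 116 CPM in RP lines and at 113, 107, 96.7 and 115 CPM in RPM lines and was lower again with addback. Without RPM replicate 1, 13 channel genes (13.5%, beside 8.76% of all shared genes) lay in opposite directions and 4 (4.17%, beside 4.48%) in the same. Without RP replicate 1, RP replicate 4 or RPM replicate 4 there were 6, 5 and 4 in opposite directions, or 6.25%, 5.21% and 4.17%, beside 6.19%, 6.34% and 5.41% of all shared genes. With all libraries, none of these 2 opposite and 2 same-direction genes was called by limma in the lines.

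Single lines set the range of several channel genes. Cacna1h stood at 63.5, 60.1, 90.5 and 101 CPM in RP and at 20.2, 6.86, 650.2 and 118 CPM in RPM lines, so the T-type channel was read most in RPM replicate 3. RPM replicate 1 held 47.5 CPM of Kcnk2, the mechanically gated TREK-1 channel, 26.9 CPM of Kcnh8 and 11.7 CPM of Scn11a, where the other RPM lines held at most 4.26, 3.43 and 1.07 CPM. RPM replicate 2, the addback line, stood out for Kcnf1 and Kcnj15, at 39.6 and 7.85 CPM. In the RP group replicate 2 was highest for Cacna1e, Trpv4, Kcnk5, Cacnb2 and Cacng6, and replicate 3 for Kcnip2, at 87.0 CPM. For each of these genes the group mean rests largely on 1 line.

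A further list of 74 genes named channel partners and channels outside the families above. With addback 21 of its 49 listed genes were higher and 15 lower, with a median log2 change of 0.29, beside 27.7% and 25.5% of all genes and their median of -0.002. The 5 largest changes were those of Scnn1a, Ano1, Abcc8, Rem2 and Lrrc55. Scnn1a, a subunit of the epithelial sodium channel, stood at 0.572, 0.426 and 0.763 CPM with empty vector and 13.1, 10.3 and 11.2 CPM with addback (log2 change 2.98). Ano1, a calcium-activated chloride channel, had no read with empty vector and 5.72, 6.23 and 5.27 CPM with addback. Rem2, a small GTPase that restrains calcium channels, stood at 11.4, 9.95 and 13.0 CPM and 37.1, 36.6 and 42.5 CPM, and Lrrc55, a BK accessory protein, at 1.29, 2.42 and 3.05 CPM and at 0 in every addback library. In the RPM against RP comparison, Fgf14, which binds sodium channels, was the 1 listed gene called of 47. It stood at 114, 110.0, 113 and 111 CPM in RP lines and at 74.1, 60.8, 50.4 and 57.6 CPM in RPM lines (log2 change -0.88, SE 0.13, limma adjusted p = 0.0394). With addback Fgf14 was higher, at 52.7, 51.0 and 51.9 CPM and 74.4, 82.9 and 56.9 CPM (log2 change 0.44, adjusted p = 0.0146). The call in the lines was lost without each library but RPM replicate 1.

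REST, a repressor of neuronal genes that holds many channel genes silent outside the nervous system, was read with its corepressors. Rest stood at 11.1, 16.9 and 14.05 CPM with empty vector and at 5.47, 4.23 and 5.53 CPM with addback, without overlap (log2 change -1.30, SE 0.17, limma adjusted p = 1.43e-04). Rcor1 and Rcor3 were lower and Sin3a higher, with log2 changes of -0.26, -0.34 and 0.34, and the other 4 of 8 were not called. Over all genes 53.2% were called. In the lines Rest stood at 2.77, 1.68, 1.22 and 5.06 CPM in RP lines and at 1.91, 5.98, 9.71 and 3.59 CPM in RPM lines, with overlap (adjusted p = 0.475). None of the 8 was called there, beside 0.334% of all genes.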

How the data were processed

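Total RNA of cultured cells was sequenced, and groups and replicate numbers came from sample titles. Reads were processed with bcl2fastq 1.8.4, TopHat2 2.1.0, HTSeq 0.6.1 and edgeR on build mm10, per the submitters' processing notes; whether counting used strand is not stated there. Of 114 channel genes, 17 have an exon that overlaps one of another listed gene on the opposite strand. Per the file headers, the deposited signal for each library is CPM after TMM normalisation. Beside it the authors deposited RPKM, log2 fold changes and mean log2 levels, p-values with FDR, and a score of -1, 0 or 1 for each call. The 2 tables, of 14360 and 14056 genes, were normalised separately. Whole reads were recovered from 100% of CPM values within 0.01 of a read.

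Each comparison was fitted on its own table with limma 3.58.1 (R 4.3.3) on log2(CPM + 1), the pseudocount understating changes of low genes. The alternatives were pseudocounts of 0.5 and 0.1, a filter at 1 CPM, median-of-ratios scaling, edgeR 4.0.16 and DESeq2 1.42.0 on recovered reads, a replicate block and leaving out each library. The fits were tested on simulated data. The channel genes, lists and tests were chosen with earlier results of these data known. Named genes were the 15 largest called changes or, with fewer than 10 calls, the 10 smallest p, the 15 highest RPKM, genes without overlap in both comparisons, genes with 1 library at least 4 times the next and at 5 CPM or more, and the 5 largest called changes of the partner list; genes named outside this rule were chosen after their values were seen. The difference between the 2 comparisons was not tested. Coordinates are from GENCODE vM21 (GRCm38) and promoters from RefSeq. The 32 tumour libraries were not analysed here, and the values of some genes that this rule names are not reported here.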

Additional observations from a re-analysis of the deposited data

Results flagged for a closer look

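Among the named channel genes, 88 groups of 4 lines were examined for a library whose gap to its nearest partner passed Dixon's 95% critical value as a share of the group's range, and 17 had one. Chance flags about 1 group in 20 where values are normally spread, which unlogged CPM need not be. Most flagged libraries were also the high library for which their gene was named, so their flags were nearly fixed beforehand. The exceptions were Cacna1e in RPM replicate 1, Kcnh2 in RPM replicate 2 and Kcnh8 in RP replicate 1. The count of 17 therefore cannot be set against the chance rate. In RPM replicate 1 these were Cacna1e at 1.91 CPM against 0.248 to 0.499 CPM, Kcnh3 at 455 CPM against 38.0 to 53.3 CPM, Kcnh5 at 10.2 CPM against 0.355 to 0.623 CPM, Kcnh8 at 26.9 CPM against 1.73 to 3.43 CPM, Kcnk2 at 47.5 CPM against 1.98 to 4.26 CPM, Scn11a at 11.7 CPM against 0.495 to 1.07 CPM and Trpv3 at 7.27 CPM against 0 to 0.473 CPM, all high. The other RPM lines gave Kcnf1 at 39.6 CPM against 1.07 to 4.09 CPM, Kcnh2 at 35.7 CPM against 98.4 to 109.6 CPM and Kcnj15 at 7.85 CPM against 0.592 to 1.40 CPM, where Kcnh2 was low, and Cacng6 at 11.2 CPM against 0 to 0.947 CPM. In RP replicate 2 they were Cacna1e at 19.6 CPM against 1.41 to 3.49 CPM, Cacng6 at 10.6 CPM against 0 to 1.65 CPM, Kcnk5 at 12.9 CPM against 0.361 to 2.44 CPM and Trpv4 at 9.02 CPM against 0.722 to 1.10 CPM, in RP replicate 1 Kcnh8 at 24.8 CPM against 9.02 to 10.9 CPM, and in RP replicate 4 Scn2b at 5.30 CPM against 0 to 0.241 CPM.

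Kcnd3 lay higher and Clcn6 lower in both comparisons, without overlap of libraries, so the difference between cells with and without Max had opposite signs in the 2 experiments. The log2 change of Kcnd3 was 2.22 in RPM over RP lines and 0.59 with addback, and that of Clcn6 was -0.30 and -0.37. The difference was not tested.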

How the results depend on the processing

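All counts and directions below are from the alternatives listed under the processing. For Max addback, channel genes called ranged from 51 to 58 higher and 13 to 18 lower over all alternatives, beside 56 and 15. With the replicate number as a block, there were 56 higher and 16 lower with addback and none in the lines. In the lines equal numbers name different animals, and with addback whether they mark a shared culture is not stated. In the lines, deviations from the group means correlated at 0.406 for RP and RPM replicates 1 and at 0.0114 to 0.128 for the other equal numbers. Unlike numbers there gave -0.291 to 0.192. With addback the correlations were 0.0202 to 0.0813 for equal and -0.0805 to 0.0443 for unlike numbers. For RPM against RP lines no channel gene was called except with DESeq2, which called 1 higher and 3 lower, and without RPM replicate 1, where the count lower was 6 (0 to 6 over libraries left out). The 1 lower gene of the partner list was not called with edgeR (0), the replicate block (0) or without most libraries (0 to 1). Channel genes without overlap in the lines numbered 2 to 8 above and 5 to 17 below as libraries were left out, and those without overlap in both comparisons 2 to 13 in opposite directions and 2 to 4 in the same. Over all genes the lines gave 48 calls with limma, 3 with edgeR, 657 with DESeq2 and 0 with the block. No direction reversed among the 29 named genes checked with addback and the 12 checked in the lines. Genes named only for 1 high library were not checked. Among them, Cacna1h in the lines had a log2 change of -0.38 with limma and 1.33 in the authors' deposited table, which calls it higher. Cacnb2 had 0.58 and -0.31 and was called by neither, while Cacna1e fell in both, at -1.70 and -3.15. Of 376 values of the checked genes with addback 361 kept their side of the threshold, and of 178 in the lines 171 did. DESeq2 gave no adjusted p for 1 value. Genes under about 1 CPM rest on few reads, which limits their changes.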
